A study of Mus musculus with 12 samples.

Results

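Accessible chromatin in introns, outside the large families of interspersed repeats, was compared between graft-derived brain macrophages and host microglia. A merged ATAC-seq peak was taken where its annotation placed it in an intron and its detailed annotation named no LTR, LINE or SINE element. In untreated mice 20591 of 60288 merged peaks (34.2%) met this rule, in introns of 7362 host genes. After challenge with lipopolysaccharide (LPS), a bacterial endotoxin, 18400 of 54953 merged peaks (33.5%) met it, in 6951 host genes. The rule left out 2835 untreated and 2519 LPS peaks that lay in introns but overlapped one of these repeats. Of 39390 peak pairs that overlapped reciprocally by at least 50% between both sets, 12123 (30.8%) were intronic and outside repeats in each.

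ATAC-seq uses a transposase that inserts sequencing adapters into open DNA, so the number of sequenced tags at a peak reports how accessible that DNA was. The cells came from bone marrow (BM) chimeras, wild-type C57BL/6J mice that had received 950 cGy of irradiation and donor BM and were kept for 9 months per the text of the study, where the labels name 3.5 or 9 months and do not say which for each mouse. From the brain of each mouse, the graft-derived CD45.1 cells and the CD45.2 host microglia were sorted through a gate for Ly6C/G-negative CD11b+ CD45lo cells. Mice 4, 5 and 6 were untreated, and mice 1, 2 and 3 were killed 12 h after 2.5 mg/kg of LPS, which gives 4 groups of 3 libraries: CD45.1 untreated, CD45.2 untreated, CD45.1 LPS and CD45.2 LPS. All 4 groups came from irradiated and transplanted mice. Per the study, the donor BM was given the day after the irradiation, so host cells were exposed to it and the graft was not. Irradiation of the cells and population therefore cannot be told apart in any comparison of CD45.1 with CD45.2. The CD45.1 and CD45.2 libraries of a number were taken to come from the same animal, on the number they share. Untreated and LPS libraries come from different animals, so treatment and animals cannot be told apart. In such bulk samples a smaller number of open cells and less opening per cell cannot be told apart either.

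Introns hold many enhancers, short stretches of DNA that bind transcription factors and act on a promoter from a distance. In macrophages the lineage factor PU.1 opens most of these sites together with AP-1, CEBP, RUNX, IRF and MEF2 proteins, and the tissue adds factors of its own, such as SALL1 in microglia. Microglia arise from the yolk sac and live in the brain parenchyma, whereas cells that engraft after irradiation descend from hematopoietic stem cells. An endotoxin signal reaches the nucleus through NF-kappaB, AP-1 and IRF factors, which bind existing enhancers and open new ones.

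The sequences of 11 of these peaks, on mm9 and on the plus strand, are shown because the comparisons below turn on them. A first pair was more open in CD45.1 cells of untreated mice, namely intron 3 of Mdfic (chr6:15708575-15708710) and intron 4 of Sdcbp (chr4:6310656-6310835). The next 3 were more open in CD45.2 cells, namely intron 1 of 4930511A08Rik (chr6:94109334-94109450), intron 7 of Slc1a3 (chr15:8592358-8592499) and intron 1 of Kcnma1 (chr14:24644280-24644444). Peaks in intron 10 of Tasp1 (chr2:139745683-139745787) and intron 11 of Nckap1l (chr15:103302081-103302175) were higher after LPS in both populations, and one in intron 10 of Ttc7 (chr17:87730498-87730707) was lower. The response to LPS differed between the populations in intron 10 of Lpp (chr16:24933973-24934087), intron 1 of Dab2 (chr15:6361447-6361592) and intron 1 of Sash1 (chr10:8590349-8590509). Capitals mark matches to a motif on either strand anywhere in the sequence shown. The motifs were searched as TGANTCA (AP-1), TTNNGCAA (CEBP), TGTGGTT (RUNX), GAGGAAGT (PU.1), AAANNGAAA (IRF) and TCACGTGA (MITF/TFE).
Mdfic intron 3: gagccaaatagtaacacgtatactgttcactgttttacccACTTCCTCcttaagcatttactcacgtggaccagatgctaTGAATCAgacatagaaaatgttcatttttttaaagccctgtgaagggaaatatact
Sdcbp intron 4: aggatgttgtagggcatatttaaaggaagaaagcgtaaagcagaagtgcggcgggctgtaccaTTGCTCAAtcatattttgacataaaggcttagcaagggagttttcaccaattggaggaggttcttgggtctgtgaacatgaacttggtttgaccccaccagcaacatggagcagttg
4930511A08Rik intron 1: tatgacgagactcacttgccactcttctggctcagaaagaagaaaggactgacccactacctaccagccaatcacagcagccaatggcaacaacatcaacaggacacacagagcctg
Slc1a3 intron 7: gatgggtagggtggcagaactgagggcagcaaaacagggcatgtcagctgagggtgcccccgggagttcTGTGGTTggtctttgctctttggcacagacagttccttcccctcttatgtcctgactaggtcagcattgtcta
Kcnma1 intron 1: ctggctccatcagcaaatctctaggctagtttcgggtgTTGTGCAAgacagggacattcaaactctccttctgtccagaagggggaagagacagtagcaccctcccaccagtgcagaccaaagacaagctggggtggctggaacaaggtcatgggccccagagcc
Tasp1 intron 10: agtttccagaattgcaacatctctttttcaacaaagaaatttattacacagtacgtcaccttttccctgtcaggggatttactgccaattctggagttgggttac
Nckap1l intron 11: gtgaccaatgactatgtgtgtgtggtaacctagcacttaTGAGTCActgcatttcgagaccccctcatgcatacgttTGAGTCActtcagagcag
Ttc7 intron 10: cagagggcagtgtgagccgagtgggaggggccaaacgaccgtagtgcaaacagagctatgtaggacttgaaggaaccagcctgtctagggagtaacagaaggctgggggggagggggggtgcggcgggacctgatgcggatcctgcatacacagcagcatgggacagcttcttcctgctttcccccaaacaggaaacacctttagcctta
Lpp intron 10: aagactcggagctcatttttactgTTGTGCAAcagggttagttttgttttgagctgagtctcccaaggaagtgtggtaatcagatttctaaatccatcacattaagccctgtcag
Dab2 intron 1: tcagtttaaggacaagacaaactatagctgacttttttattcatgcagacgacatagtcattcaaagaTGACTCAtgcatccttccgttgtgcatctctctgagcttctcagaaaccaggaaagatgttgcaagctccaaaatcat
Sash1 intron 1: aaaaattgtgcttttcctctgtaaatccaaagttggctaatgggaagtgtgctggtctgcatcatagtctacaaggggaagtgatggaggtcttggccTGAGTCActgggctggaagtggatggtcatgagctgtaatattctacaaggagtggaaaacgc

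AP-1 letters were found in the Mdfic, Nckap1l, Dab2 and Sash1 peaks, 2 times in Nckap1l, and CEBP letters in the Sdcbp, Kcnma1 and Lpp peaks. The Mdfic peak also held a PU.1 match and the Slc1a3 peak a RUNX match, while the 4930511A08Rik, Tasp1 and Ttc7 peaks held none. No match shown here overlapped another. Shares over all 60288 merged untreated peaks were counted in the central 200 bp, a window of another length than these sequences. There 8.12% held the AP-1 letters, 9.82% CEBP, 5.65% RUNX, 9.46% PU.1, 9.23% IRF and 0.602% MITF/TFE. A match is a description of the letters and not a measured binding site.

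Libraries held 8392877.5 to 9107770 tags in untreated mice and 2966364 to 6556594.5 after LPS, and 18.4% to 39.0% of them lay in merged peaks, the lowest share being that of CD45.2 untreated mouse 4. Intronic peaks outside repeats took 24.5% ± 0.734 of the tags in merged peaks in CD45.1 untreated libraries, 24.9% ± 1.16 in CD45.2 untreated, 24.3% ± 0.377 in CD45.1 LPS and 23.97% ± 0.425 in CD45.2 LPS libraries (SD, n = 3 each). Within a mouse, CD45.1 differed from CD45.2 by −0.023 percentage points (SD 0.923, higher in CD45.1 in 2 of 6 mice), less than the SD over the mice (two-sided exact permutation of the pairs, p = 0.9375). The median intronic peak held 13 to 29.5 tags in untreated and 6.5 to 19.5 tags in LPS libraries, so single peaks are less precise after LPS. Across intronic peaks, log counts had a Pearson r of 0.862 to 0.932 within a population at rest and of 0.795 to 0.872 after LPS, against 0.512 to 0.687 and 0.578 to 0.664 between populations, a description across peaks that share library and depth. Peaks nearest to 5 defining microglia genes (Sall1, P2ry12, Tmem119, Siglech, Olfml3) summed to 825 to 1296 normalised tags per CD45.1 and 1978 to 2052 per CD45.2 untreated library, and those of 10 macrophage genes to 3467 to 3814 and 3421 to 3749. Of 7 T cell genes, Cd3e, Cd3g and Cd8a had no peak, but the others summed to 305 to 362 tags in CD45.1 against 173 to 223 in CD45.2, B cell genes, with none at Cd79a or Pax5, summed to 119 to 143 against 77.1 to 98.3, and neutrophil genes, with none at Mpo, S100a8 or Cxcr2, to 109 to 119 against 51.9 to 89.3. After LPS T cell genes summed to 111 to 142 against 82.5 to 87.2 tags and B cell genes to 39.6 to 52.2 against 28.8 to 34.2, whereas neutrophil genes, with none at Mpo, summed to 32.0 to 55.0 in CD45.1 against 54.3 to 73.9 in CD45.2. Neuron genes at rest summed to 487 to 819 against 771 to 900 tags, and endothelial genes to 326 to 395 against 474 to 534. The part of other cell types in the comparisons that follow was not tested.

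To ask how intronic chromatin differed between grafted cells and host microglia at rest, tags were compared between the 3 CD45.1 and the 3 CD45.2 untreated libraries. Most intronic sites were shared: 77.2% of 20166 tested intronic peaks differed by less than 2-fold, against 80.3% of all tested peaks, and the median log2 difference was −0.06 (0.00 over all peaks). A peak was called where the DESeq2 adjusted p over all merged peaks was under 0.01 and the difference was more than 4-fold. By this measure 801 intronic peaks (3.97%) were more open in CD45.1 cells, where 3.78% of all tested peaks were, and 621 (3.08%) were more open in CD45.2 cells, against 2.65% of all. The called peaks had a median log2 difference of 3.21 and −3.14, or 2.60 and −2.54 where 310 and 250 of them, with at most 3 tags in every library of the lower population, were given the bound that 3 tags allow. The shares called towards CD45.1 and CD45.2 were 0.796% and 0.811% for promoter peaks, 5.71% and 3.29% for intergenic peaks and 5.52% and 3.26% for intronic peaks inside LTR, LINE or SINE elements. Among the intronic peaks outside repeats they were 3.19% and 2.53% in first introns and 4.52% and 3.46% in later introns. Differences between these classes were not tested. Without CD45.2 untreated mouse 5 the calls were 484 and 372, and without CD45.2 untreated mouse 6 those higher in CD45.2 were 392.

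Among intronic peaks more open in CD45.1 cells, the smallest adjusted p lay in intron 2 of Prkar2b, which encodes a regulatory subunit of protein kinase A (chr12:32681852-32681994). CD45.1 libraries of mice 4, 5 and 6 held 98.9, 114 and 132 normalised tags there and CD45.2 libraries 10.7, 7.35 and 11.8 (tags divided by the size factor of the library). The groups did not overlap, and the log2 difference was 3.58 (SE 0.343, DESeq2 adjusted p 4.92e-22). This peak lies in MamRep605, a repeat of unknown class that the rule does not exclude. Sdcbp encodes syntenin, a PDZ adaptor of exosome formation, and its intron 4 peak held 183, 184 and 195 tags in CD45.1 against 54.1, 32.1 and 42.2 in CD45.2 cells (log2 difference 2.18, SE 0.211, adjusted p 1.27e-21 by DESeq2). All CD45.1 libraries lay far above all CD45.2 libraries, although the site was open in both. Without CD45.2 untreated mouse 5 the difference was 1.99, just under 4-fold. At intron 3 of Mdfic, a gene of the MyoD family inhibitor domain, CD45.2 cells were close to closed, with 4.92, 4.26 and 1.62 tags against 111, 122 and 107 (5.00, SE 0.487, DESeq2 adjusted p 2.6e-21). Intron 2 of Elovl6, a fatty acid elongase, and intron 4 of the noncoding 1700024I08Rik completed the 5 with the smallest adjusted p. Their means were 128 ± 16.6 against 18.5 ± 5.66 and 102 ± 8.98 against 2.81 ± 0.478 tags (SD, n = 3).

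In the opposite direction the smallest adjusted p belonged to intron 1 of 4930511A08Rik, a noncoding gene that lies inside the span of Magi1. CD45.2 libraries of mice 4, 5 and 6 held 184, 169 and 153 normalised tags there, and CD45.1 libraries 7.46, 9.58 and 5.99 (log2 difference −4.43, SE 0.346, DESeq2 adjusted p 5.18e-33). A neighbouring peak, at 94109454 to 94109548, gave 122, 104 and 118 against 7.93, 9.58 and 1.63 tags. Both peaks were covered in every CD45.2 library and low in every CD45.1 library. Slc1a3 encodes the glutamate transporter GLAST, best known from astrocytes, and its intron 7 peak held 156, 136 and 155 tags in CD45.2 against 11.7, 8.21 and 4.90 in CD45.1 libraries (−4.20, SE 0.348, DESeq2 adjusted p 1.42e-29). Lyar, which encodes a nucleolar protein, had 127, 121 and 126 tags against 7.93, 2.74 and 3.27 in intron 6 (−4.78, SE 0.438, DESeq2 adjusted p 5.02e-24). At intron 1 of Kcnma1, the BK potassium channel, CD45.2 libraries held 152, 154 and 145 tags, while no CD45.1 library held more than 3 unscaled tags. Accessibility there was at least 51.2-fold higher in CD45.2 cells, taking 3 tags per library as the floor. These 10 peaks kept their call under each of the 13 alternative fits run for each, except Sdcbp without CD45.2 untreated mouse 5.

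**Figure D1:**
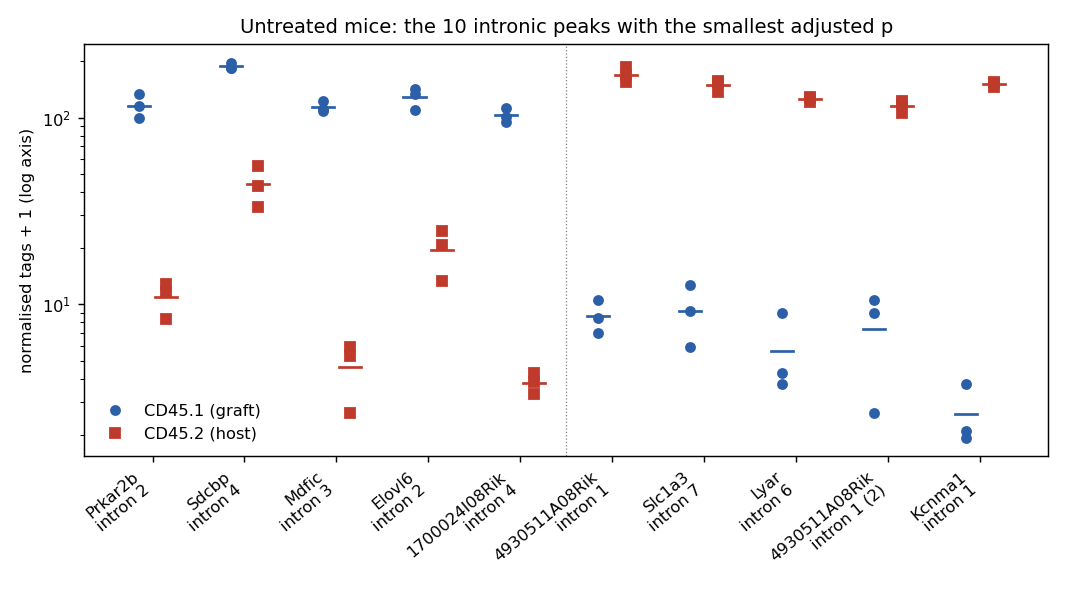
Normalised tags plus 1 (log axis) in each CD45.1 (circles) and CD45.2 (squares) library of untreated mice at the 10 intronic peaks with the smallest adjusted p, 5 per direction, with bars at the group means. The groups do not overlap at any of the 10, and the closest pair of groups is at Sdcbp, with 183 tags in the lowest CD45.1 and 54.1 in the highest CD45.2 library.

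Called intronic peaks shared sequence features that the rule did not use. Those more open in CD45.1 cells were poor in GC (median 43.0% over the central window), whereas those more open in CD45.2 cells (51.5%) were close to peaks that were not called (50.5%). Both kinds lay farther from the nearest start site, at a median of 26735 and 29549 bp against 15027 bp, and fewer of them lay in first introns (33.1% and 33.8% against 41.8%) or in CpG islands (0.375% and 1.93% against 8.33%). CEBP letters were found in 20.3% of the peaks more open in CD45.1, in 8.05% of those more open in CD45.2 and in 10.4% of uncalled intronic peaks. IRF letters stood in 19.6%, 6.92% and 10.7% of these sets and AP-1 letters in 17.4%, 6.92% and 9.27%. RUNX followed the same order with 12.6%, 3.86% and 6.40%, as did MEF2 with 6.37%, 0.966% and 2.09% (1.97% of all merged peaks). PU.1 letters were spread evenly, at 10.6%, 11.1% and 11.2%. NF-kappaB letters were rarer in the peaks more open in CD45.1 (3.25%, 5.15% and 5.76%, 6.01% of all merged peaks), and CTCF letters were nearly absent from both called sets (0.375% and 1.13% against 5.85%, 5.07% of all merged peaks). MITF/TFE letters were rare throughout, in 0.624%, 0.483% and 0.320%. GC content moved with these shares, and its part in them was not tested. In a fit that held both a block for the mouse and a correction for GC content, 443 and 438 intronic peaks were called.

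**Figure D2:**
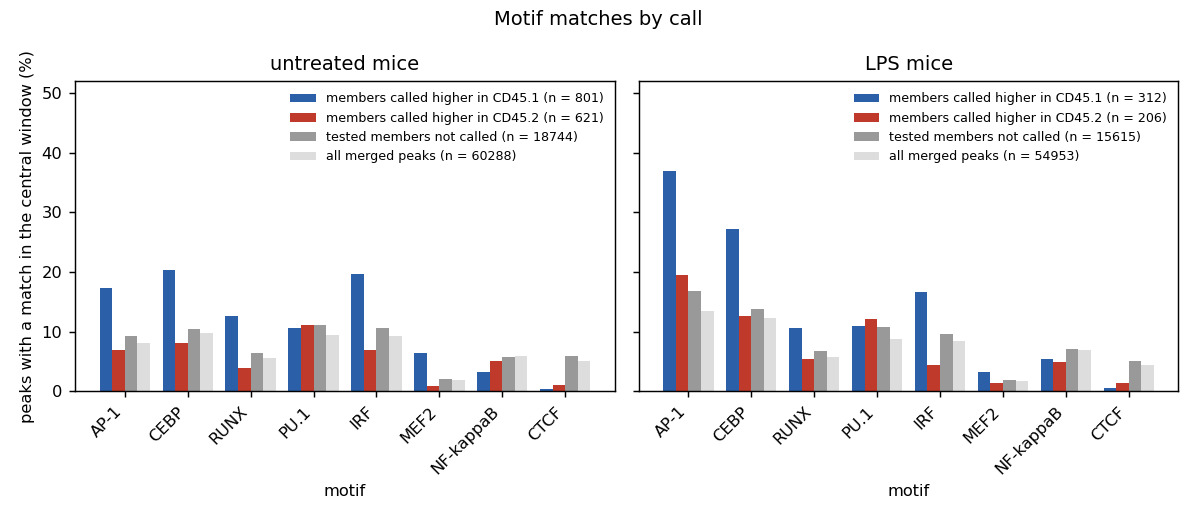
Share of peaks (%) with at least 1 motif match in the central 200 bp, for intronic peaks called higher in CD45.1, called higher in CD45.2 and not called, and for all merged peaks, in untreated (left) and LPS (right) mice. AP-1 letters stood in 17.4% of the CD45.1 set at rest and 36.9% after LPS. They stood in 6.92% and 19.4% of the CD45.2 set and in 9.27% and 16.8% of intronic peaks not called. PU.1 letters lay between 10.6% and 12.1% in every intronic set.

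Many host genes held several of these peaks. At rest 3484 genes had 1 intronic peak outside repeats, 2740 had 2 to 4, 813 had 5 to 9 and 325 had 10 or more. The most were found in Elmo1, which activates the GTPase Rac in engulfment, and in Nav2, with 40 each, followed by Etv6, Ttc28, Arid1b, Ldlrad4, Tcf4 and Dock4 with 30 to 34. Calls were few in these 8 genes, which had 30 to 39 tested peaks each. Over all tested intronic peaks, 3.97% were called towards CD45.1 and 3.08% towards CD45.2. Elmo1 and Arid1b had 1 peak each called higher in CD45.2, Nav2 had 2 and Etv6, Ttc28 and Ldlrad4 had 1 each called higher in CD45.1, and Tcf4 and Dock4 had none. Over all its intronic peaks Elmo1 had 1079 ± 82.2 normalised tags per CD45.1 and 1112 ± 126 per CD45.2 library, and Nav2 held 1303 ± 127 and 1301 ± 67.1 (SD, n = 3). The 8 genes with the most intronic peaks thus held 0 to 2 calls each.

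Some other genes held several calls each. Whether this is more than their numbers of peaks would give was not tested. Of 1011 host genes with a call at rest, 596 had a peak called higher in CD45.1 and 444 one called higher in CD45.2, with 29 counted in both. In 122 genes 2 or more peaks were called higher in CD45.1, 326 of the 801 such peaks. In 96 genes 2 or more were called higher in CD45.2, 273 of the 621. The genes named next were picked for having the most calls.

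Ptprk, a receptor-type tyrosine phosphatase, had all 7 of its tested intronic peaks called higher in CD45.1. They were spread over 6 introns of chromosome 10, 28042931 to 28313913, and summed to 178, 218 and 184 normalised tags in CD45.1 against 4.92, 4.26 and 7.30 in CD45.2 libraries of mice 4, 5 and 6. At 6 of them CD45.2 libraries were at the floor, and CD45.1 was at least 5.64-fold to at least 13.1-fold higher. The start of Themis, a T cell gene, was the nearest one at all but the first of these peaks. The T cell marker sums given above, also higher in CD45.1 libraries, count peaks by nearest start and so include those nearest to Themis. Those sums are thus not a separate observation. Mdfic had 7 of 9 peaks called, from its first to its last intron, with 316, 324 and 318 tags against 46.7, 35.2 and 47.1. In both genes the CD45.1 libraries lay within a narrow range of each other and far from CD45.2.

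Cd36 encodes a scavenger receptor and fatty acid translocase, and 6 of its 7 peaks, all in its first intron, were called higher in CD45.1. They summed to 560, 575 and 571 tags against 95.0, 54.6 and 110. The seventh peak, at 17360413 to 17360571 of chromosome 5, had 179 ± 29.2 against 45.9 ± 11.6 tags and fell just short of 4-fold (log2 difference 1.97, SE 0.223, DESeq2 adjusted p 8.21e-16). Gnat3, the taste G protein gustducin, lies 73.7 kb away and had all 5 of its peaks called in the same direction (339, 373 and 359 against 23.8, 27.9 and 45.9 tags), so that 11 of the 12 intronic peaks of this stretch of chromosome 5 were called. Cmah, which hydroxylates sialic acid, had 5 of 6 called, Myof, the membrane repair protein myoferlin, 5 of 7, and Arhgef10, a guanine nucleotide exchange factor, and Zbtb16, the transcription factor PLZF, 5 of 9 each. Their sums in CD45.1 and CD45.2 were 149 ± 4.31 and 9.44 ± 3.71 tags for Cmah, 198 ± 59.8 and 40.6 ± 3.92 for Myof, 523 ± 31.2 and 238 ± 35.9 for Arhgef10 and 412 ± 54.5 and 166 ± 23.4 for Zbtb16. No intronic peak of these 8 genes lay below 0.

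Ptprm, a close relative of Ptprk, was open in the other population, with 10 of 17 intronic peaks called higher in CD45.2. Its sums were 451, 420 and 510 tags in CD45.2 against 136, 121 and 83.3 in CD45.1 libraries of mice 4, 5 and 6. Magi1, a scaffold protein of cell junctions, had 9 of 14 called, and the noncoding 4930511A08Rik 7 of 8. All 8 peaks of the latter lay inside the span of Magi1 (chromosome 6, 93625449 to 94233316), so 16 of 22 intronic peaks of this locus were called. The sums over 4930511A08Rik were 549, 540 and 530 tags in CD45.2 against 23.3, 31.5 and 10.9 in CD45.1, and over Magi1 they were 413, 417 and 433 against 156, 184 and 102. CD45.1 cells thus kept part of the Magi1 signal and little of that in 4930511A08Rik.

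Pkp4, a plakophilin of cell junctions, had 7 of 9 peaks called higher in CD45.2, spread over 7 introns, with 424 ± 36.4 tags against 53.4 ± 13.2 in CD45.1. Eya4, a transcriptional coactivator, and Slc1a3 had all 6 of theirs called. The Slc1a3 peaks lay in introns 2, 3 and 7 and summed to 338, 314 and 351 tags against 54.1, 46.1 and 27.8. Csmd3 and Kcnma1 had 5 of 6 called each. In Kcnma1 the sums were 261, 256 and 261 tags in CD45.2 and 1.87, 3.65 and 6.53 in CD45.1, and the 5 called peaks were at least 3.66-fold to at least 51.2-fold higher in CD45.2. Csmd3 held 166 ± 21.96 against 23.3 ± 6.89 tags.

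Some genes held peaks that went opposite ways. Asph, an aspartate hydroxylase, and Hip1, which links clathrin to actin, had 3 peaks called higher in CD45.1 and 1 higher in CD45.2 each. Slc9a9, an endosomal sodium-proton exchanger, had 1 and 3, and Capzb, which caps actin filaments, and Epb41l2, a membrane skeleton protein, had 1 and 2 each. In Slc9a9 the fitted log2 differences of single peaks ran from −4.17 to 5.53, 2 of its called peaks having a lower group at the floor, while the sums over all its peaks came to 529 ± 50.1 tags per CD45.1 library and 510 ± 21.8 per CD45.2 library.

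**Figure D3:**
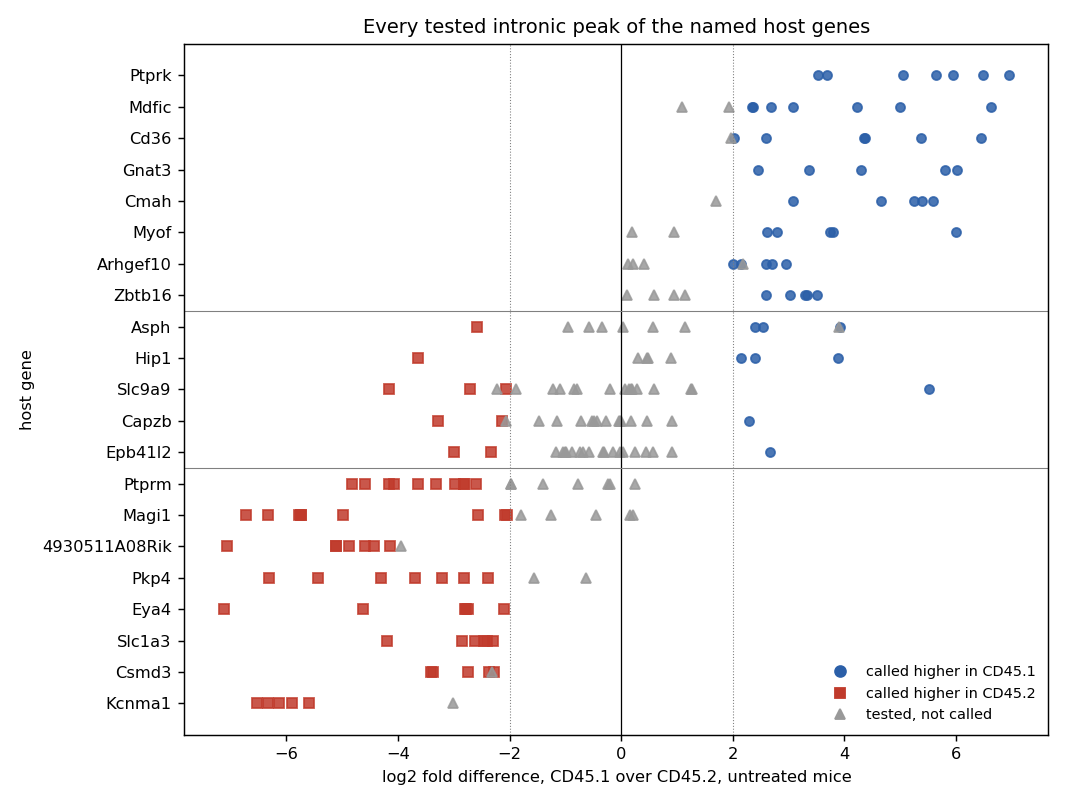
Log2 difference of CD45.1 over CD45.2 in untreated mice for every tested intronic peak of the 8 genes with the most calls towards CD45.1 (top), 5 genes with calls both ways (middle) and the 8 genes with the most calls towards CD45.2 (bottom). Dotted lines mark 4-fold, and fitted values are drawn also where one population was at the floor, which are no bounds. All 7 peaks of Ptprk lie to the right and all 6 of Eya4 to the left, while Slc9a9 runs from −4.17 to 5.53.

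Intronic peaks were then counted by lists of genes. The list of marrow-derived and border macrophage genes had 77 tested intronic peaks at rest, of which 25 (32.5%) were called higher in CD45.1 and 0 higher in CD45.2, with a median log2 difference of 0.83 against −0.06 over all tested intronic peaks. Cd36 gave 6 and Cmah 5 of the 25, Cd38, an ecto-enzyme that consumes NAD, had 3 of 5 called (165 ± 17.1 against 17.1 ± 2.92 tags) and the integrin Itga4 had 2 of 3 (158 ± 20.9 against 42.2 ± 9.19 tags). At an unadjusted p under 0.05, 45 peaks of this list were higher in CD45.1 and 1 in CD45.2, and edgeR called 29 and 0. The list was put together with the study and earlier results of these mice known and is not independent evidence of its direction. Of 237 tested peaks of microglia identity genes, 21 (8.86%) were called higher in CD45.2 and 5 (2.11%) higher in CD45.1, with a median of −0.14, against 3.08% and 3.97% of all tested intronic peaks. Besides Slc1a3, the transcription factor Klf12 had 5 of 6 peaks called (10.7 ± 2.27 against 109 ± 15.8 tags), and Nav3 had 3 of 9 (97.7 ± 40.2 against 355 ± 27.1 tags). The 65 peaks of LPS and NF-kappaB response genes held 2 calls towards CD45.1, 1 each in Cd40 and Nfkbiz, and 0 towards CD45.2, with a median of −0.01, while 10 and 8 had an unadjusted p under 0.05 and edgeR called 2 and 0.

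Transcription factor genes had 19 calls each way among 413 peaks, a share near those of all tested intronic peaks. Trps1, a GATA-type repressor, had 4 of 11 peaks called higher in CD45.1 (656 ± 14.7 against 244 ± 49.0 tags), while Nfia had 5 of 26 and the retinoic acid receptor Rarb 4 of 7 called higher in CD45.2. For Rarb the sums were 48.5 ± 21.5 against 201 ± 27.2 tags. Axon guidance and adhesion genes had 11 calls towards CD45.1 (11.6%) and 5 towards CD45.2 (5.26%) among 95 peaks, led by Dscam with 3 of 7 and Sema6d with 2 of 7 towards CD45.1. Adgrl3 had both of its peaks called, with 14.5, 13.7 and 50.6 tags in CD45.1 of mice 4, 5 and 6 and 3.28, 0 and 1.22 in CD45.2, so that mouse 6 held most of the signal.

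After the LPS challenge the same comparison was made between the CD45.1 and CD45.2 cells of mice 1, 2 and 3. Fewer intronic peaks were called at this lower depth. Of 16133 tested, 312 (1.93%, against 1.78% of all peaks) were more open in CD45.1 and 206 (1.28%, against 1.19% of all) in CD45.2, and 78.5% differed by less than 2-fold. With the mouse as a block the counts were 190 and 125, and 118 and 130 where that fit was also corrected for GC content, which moved the share of calls towards CD45.1 from 60.2% to 47.6%. Scaled to total tags they were 367 and 156, 70.2% of them towards CD45.1, and all peaks shifted by 0.14 (log2) towards CD45.1. Leaving out single libraries gave 115 to 219 and 75 to 125 calls. All but the omission of CD45.2 LPS mouse 1 lowered the calls towards CD45.1 by more than 1.5 times, the lowest count being that without CD45.2 LPS mouse 2, and every omission did so for calls towards CD45.2, where the lowest was without CD45.1 LPS mouse 1.

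Intron 2 of Stap1, an adaptor of hematopoietic cells, led the peaks more open in CD45.1 after LPS (chr5:86507746-86508029), with 125, 145 and 126 normalised tags in mice 1, 2 and 3 against 9.63, 10.5 and 22.6 in CD45.2 (log2 difference 3.06, SE 0.308, DESeq2 adjusted p 3.26e-19). The Mdfic intron 3 site was again called, with 109, 119 and 89.6 against 10.5, 8.72 and 11.9 tags (3.34, SE 0.341, DESeq2 adjusted p 1.09e-18). Neither comparison showed any overlap of the groups. Introns of Ctnnd2, a delta-catenin, Asph and Cubn, the endocytic receptor cubilin, followed with 105 ± 16.6, 82.3 ± 4.46 and 140 ± 22.7 tags in CD45.1 against 16.5 ± 5.17, 10.7 ± 1.94 and 32.7 ± 10.4 in CD45.2 (SD, n = 3). The Asph peak lay in a Tigger7 DNA element, and Cubn fell just under 4-fold (2.00 on the log2 scale) without CD45.2 LPS mouse 3.

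Towards CD45.2, the 4930511A08Rik site came first, with 157, 127 and 113 tags in mice 1, 2 and 3 against 4.04, 4.57 and 2.83 in CD45.1 (−5.06, SE 0.475, DESeq2 adjusted p 4.07e-22). A further peak of the same intron, at 94113251 to 94113513, was at least 24.8-fold higher in CD45.2, and one in intron 4 of Eya4 (chr10:22891405-22891627) at least 29.5-fold, with 103, 79.8 and 87.0 tags against 1.62, 0 and 1.89. The other 2 of the 5, in Cdk8 and Filip1l, lay in sequence annotated as ribosomal RNA. Of 11 such intronic peaks at rest 10 were called higher in CD45.2, and of 8 after LPS 6 were. Reads from near-identical ribosomal copies can be shared between these sites, so their values are uncertain.

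Some genes again held several calls. Mdfic had 5 of 9 tested peaks called higher in CD45.1, and Dscam, Rasgrp1, Cd36 and Myof had 3 each. Rasgrp1, which activates Ras in lymphocytes and myeloid cells, held 115, 103 and 152 tags against 12.3, 17.9 and 28.8 over its 5 peaks, and 4 of 5 had been called at rest. Cd36 had 338, 431 and 533 tags against 162, 124 and 152, so that its sums lay closer together than at rest. Towards CD45.2, Trpc4, a calcium-permeable channel, had 6 of 7 peaks called after LPS, against 1 intronic peak at rest, which was called too. Its LPS peaks summed to 166, 139 and 138 tags in CD45.2 against 2.43, 1.30 and 3.30 in CD45.1, and the 6 were at least 3.90-fold to at least 19.4-fold higher. The single resting peak held 19.7, 11.6 and 14.2 tags in CD45.2 and 0, 1.37 and 1.09 in CD45.1. Pkp4 had 5 of 7 called, 4930511A08Rik 4 of 5, Magi1 4 of 9 and Rbfox1, a splicing factor best known from neurons, 4 of 12. The neuron marker list includes Rbfox1 itself. Peaks of that list summed to 250.0 to 301 tags in CD45.1 and 329 to 466 in CD45.2 LPS libraries, which is not a separate observation.

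For the counts by list after LPS, 1.93% of all tested intronic peaks were called higher in CD45.1 and 1.28% higher in CD45.2. Marrow-derived and border macrophage genes had 8 of 62 tested peaks (12.9%) called higher in CD45.1 and 0 higher in CD45.2. Their median was 0.62, against −0.01 over all tested intronic peaks, edgeR called 10 and 0, and 23 and 1 had an unadjusted p under 0.05. Cd36 gave 3 of the 8, Cd38 2 and Esr1 and Cmah 1 each. Microglia identity genes had 1 (0.469%) and 6 (2.82%) calls of 213, which included both intronic peaks of Sall1 (13.4 ± 5.63 against 93.1 ± 11.4 tags). Of 60 peaks of LPS and NF-kappaB response genes DESeq2 and edgeR called 0 either way, and 6 and 1 had an unadjusted p under 0.05. Transcription factor genes had 9 (2.39%) and 4 (1.06%) calls of 377, near the shares of all tested intronic peaks, led by Trps1 with 3 of 16 towards CD45.1. Axon guidance and adhesion genes had 7 (7.69%) and 2 (2.20%) of 91, led by Dscam.

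The differences at rest were then followed in the LPS mice, which share no library with the untreated ones. Of 801 intronic peaks called higher in CD45.1 at rest, 479 had a matched LPS peak and 437 were tested there. CD45.1 was above CD45.2 in 436 of these, and 146 were called, which is 18.2% of the resting calls and 46.8% of the LPS calls. Of 621 called higher in CD45.2 at rest, 292 were matched and 268 tested, all 268 had the same sign, and 113 were called (18.2% of the resting and 54.9% of the LPS calls). None was called in the opposite direction. Peaks without a matched partner give no value, so these counts cover sites that were found in both sets.

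**Figure D4:**
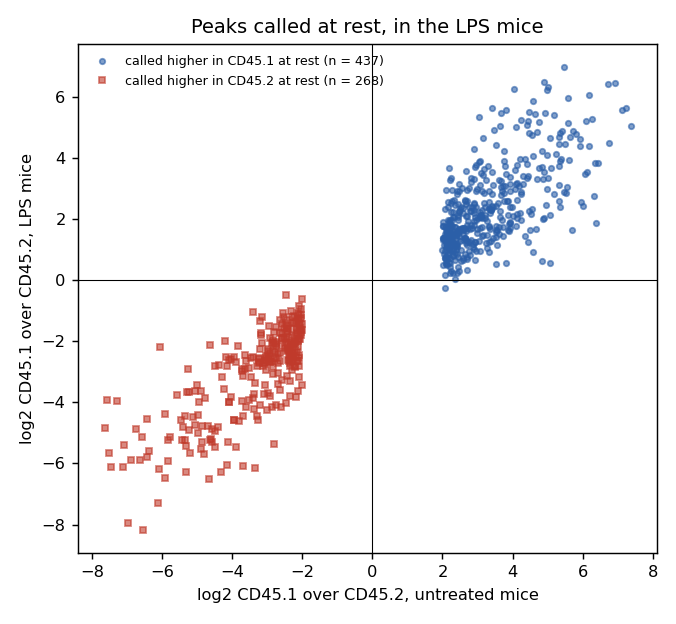
Log2 difference of CD45.1 over CD45.2 in untreated mice (horizontal) and in LPS mice (vertical) for intronic peaks called at rest and tested after LPS, 437 called higher in CD45.1 (circles) and 268 called higher in CD45.2 (squares). Values are fitted ones, and where one population was at the floor they are no bounds. All but 1 point keep their sign.

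LPS was compared with untreated mice within each population over the 39235 tested pairs of matched peaks, 12070 of them intronic and outside repeats. A response was called at a DESeq2 adjusted p under 0.05 and more than 2-fold. In CD45.1 cells 988 intronic peaks (8.19%, against 6.78% of all matched peaks) were higher after LPS and 733 (6.07%, against 4.93%) lower. In CD45.2 cells 1133 (9.39%, against 7.69%) were higher and 618 (5.12%, against 3.69%) lower. The median log2 response of called peaks was 1.503 and −1.41 in CD45.1 and 1.64 and −1.37 in CD45.2, or 1.501, −1.38, 1.61 and −1.37 with peaks at the floor set to their bound. Scaled to total tags, 689 and 309 peaks were called in CD45.1 and 714 and 358 in CD45.2, and the share of higher calls in CD45.1 moved from 57.4% to 69.0%. All peaks then shifted by −0.14 (log2) in CD45.2. Peaks were called, merged and counted in each treatment on its own, so the treatment and the set of peaks cannot be told apart. LPS intervals were wider, with a median of 168 against 140 bp over matched intronic peaks, by 1.45 and 1.43 times among those higher and 0.943 and 0.916 times among those lower after LPS in CD45.1 and CD45.2. Per base of each interval, 813 and 496 peaks were called in CD45.1 and 929 and 341 in CD45.2. The lower calls in CD45.1 were 443, 331 and 479 without CD45.1 LPS mouse 2, CD45.1 LPS mouse 3 and CD45.1 untreated mouse 5. Those in CD45.2 were 389, 332, 309 and 352 without CD45.2 LPS mouse 2, CD45.2 LPS mouse 3, CD45.2 untreated mouse 5 and CD45.2 untreated mouse 6.

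The rises with the smallest adjusted p in one population also passed the test in the other. The peak in intron 10 of Tasp1, the protease that cleaves MLL, held 18.7, 11.02 and 16.1 tags in CD45.1 untreated libraries and 104, 161 and 122 after LPS (log2 response 3.08, SE 0.278, DESeq2 adjusted p 1.13e-24), on a scale common to all 12 libraries. In CD45.2 it went from 5.98, 2.63 and 5.22 to 95.8, 108 and 77.0 tags (4.35, SE 0.387, DESeq2 adjusted p 1.05e-25). Nckap1l encodes HEM1, a hematopoietic part of the WAVE actin complex, and its intron 11 peak rose from 3.81, 3.95 and 5.77 to 80.7, 115 and 116 tags in CD45.2 (4.48, SE 0.377, DESeq2 adjusted p 1.9e-28). In CD45.1 it held 1.56, 3.98 and 0.358 tags before and 82.0, 104 and 96.5 after LPS. Neither site overlapped between treatments in either population. Gucy2g, a guanylate cyclase, rose in intron 4 from 14.8 ± 0.745 to 110 ± 26.6 tags in CD45.1 and from 43.9 ± 2.07 to 164 ± 31.1 in CD45.2, and Tns3, the adhesion protein tensin 3, in intron 3 from 7.97 ± 4.96 to 90.8 ± 7.06 and from 6.39 ± 2.02 to 74.7 ± 13.02.

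The losses with the smallest adjusted p started from well covered sites. Intron 10 of Ttc7 held 51.7, 56.0 and 39.8 tags in CD45.1 untreated libraries and 10.5, 7.77 and 1.399 after LPS (−2.89, SE 0.462, DESeq2 adjusted p 3.54e-08), and 55.0 ± 7.59 and 8.50 ± 3.61 in CD45.2. Intron 2 of Zfp516, a zinc finger protein, fell from 49.4 ± 5.74 to 3.72 ± 2.24 tags in CD45.1 and from 46.4 ± 15.0 to 6.04 ± 4.74 in CD45.2. Psap, the precursor of lysosomal saposins, fell in intron 1 from 75.7 ± 7.39 to 20.5 ± 8.66 in CD45.1 and from 62.3 ± 9.15 to 30.7 ± 5.69 in CD45.2. Bin2, a BAR domain protein of phagocytes, fell in intron 2 from 55.7 ± 4.35 to 6.17 ± 6.68 tags in CD45.2, and intron 10 of Zswim4 from 102 ± 18.7 to 31.2 ± 6.44. The fall in intron 11 of Sfi1 (251 ± 33.5 to 103 ± 7.77 in CD45.2) was under 2-fold per base of each interval (log2 response −0.81), and the nearest start there is that of a pseudogene, Pisd-ps3.

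Matched intronic peaks that were higher after LPS held AP-1 letters in 36.8% (CD45.1) and 34.9% (CD45.2) of cases, against 12.1% of all matched intronic peaks and 3.27% and 3.56% of those lower after LPS. CEBP letters stood in 22.3% and 25.2% of the higher and 9.55% and 6.31% of the lower ones (12.1% of all matched intronic). PU.1 letters had the reverse order, with 9.51% and 9.97% of the higher, 18.01% and 18.1% of the lower and 12.3% of all. NF-kappaB letters stood in 9.21% and 6.80% of the higher and 4.09% and 3.07% of the lower peaks, against 6.18% of all matched intronic peaks. GC content differed little here, with medians of 49.8% and 48.5% for the higher and 50.5% for both lower sets.

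Several genes held more than 1 responding peak, and the genes given here were chosen after their values were seen. Pla2g4a, the cytosolic phospholipase A2, had 5 of 13 matched peaks higher after LPS in each population and 0 lower. Tns3 had 5 of 18 higher in CD45.1 and 4 higher and 2 lower in CD45.2. Ppp3ca, the catalytic subunit of calcineurin, had 5 of 9 higher in CD45.1 and 3 in CD45.2. Among the losses, Srgap2, a partner of ROBO receptors, had 5 of 11 lower and 1 higher in CD45.1 and 3 lower in CD45.2, Amz1 had 4 and 3 of 5 lower, and Ssh2, a phosphatase that activates cofilin, had 5 and 1 of 8 lower. Among LPS and NF-kappaB response genes, 3 of 36 matched peaks (8.33%) were higher in CD45.1 and 4 (11.1%) in CD45.2, near the 8.19% and 9.39% of all matched intronic peaks, and 2 and 1 were lower. Those higher in CD45.1 lay in Tnfaip3, Nfkbiz and Gpr65, with log2 responses of 1.44, 1.89 and 1.32, and those in CD45.2 included Tnfaip3 (1.95), Nfkbiz (2.99) and Tnf (1.34). The Irf7 peak was among the lower ones in both (−3.11 and −1.62). Marrow-derived and border macrophage genes had 3 of 47 matched peaks higher and 2 lower in CD45.1, and 13 higher and 0 lower in CD45.2, 4 of them in Cd36, where edgeR also called 13 and 0 and 15 and 0 had an unadjusted p under 0.05. Microglia identity genes had 11 higher and 13 lower of 152 in CD45.1 and 8 and 11 in CD45.2, transcription factor genes 35 and 16 of 271 and 34 and 11, and axon guidance and adhesion genes 8 and 2 of 64 and 8 and 3.

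Whether the populations responded differently was tested by the interaction of population and treatment in the same DESeq2 model, where a constant factor between both peak sets cancels. At an adjusted p under 0.05, 31 of 12070 intronic peaks (0.257%) differed, against 0.245% of all matched peaks. In 28 the log2 response was higher in CD45.2 and in 3 it was higher in CD45.1, in 1 of these through a fall in CD45.2, and 712 had an unadjusted p under 0.05. The count was 12 with the mouse as a block, 46 with edgeR and 2 when scaled to total tags, where all peaks shifted by 0.10 (log2). Without single libraries it was 9 to 35. It was 9 without CD45.2 untreated mouse 5, 15 without CD45.1 untreated mouse 6, 19 without CD45.2 untreated mouse 6 or CD45.2 LPS mouse 3, and 20 without CD45.1 LPS mouse 3 or CD45.2 LPS mouse 2. All 28 with the higher log2 response in CD45.2 were higher after LPS in CD45.2, 8 of them also in CD45.1. At rest all 28 were higher in CD45.1, 19 of them called, with a median log2 difference of 2.34, and after LPS their median was 0.38 with 0 called. The untreated libraries enter both the resting difference and the interaction, so these counts are not independent of each other.

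Lpp, a LIM protein of focal adhesions, had the smallest adjusted p. Its intron 10 peak held 52.9, 49.0 and 53.4 tags in CD45.1 untreated libraries of mice 4, 5 and 6 and 63.3, 41.8 and 55.3 in CD45.1 LPS libraries of mice 1, 2 and 3. In CD45.2 it held 6.53, 12.4 and 16.8 tags before and 61.8, 65.1 and 67.0 after LPS. CD45.1 cells were thus open in both states and CD45.2 cells after LPS, and the interaction was −2.26 (log2, SE 0.386, DESeq2 adjusted p 3.03e-05). The Sdcbp intron 4 peak went from 125 ± 3.50 to 167 ± 22.1 in CD45.1 and from 28.8 ± 7.02 to 110 ± 21.05 in CD45.2 (−1.54, SE 0.290, DESeq2 adjusted p 0.000173). Pdgfrb, a growth factor receptor of pericytes, held 54.2 ± 5.62 and 64.2 ± 9.00 tags in intron 14 in CD45.1 and 11.2 ± 1.53 and 53.4 ± 9.88 in CD45.2 (−2.03, SE 0.390, DESeq2 adjusted p 0.000228). In these 3 peaks the populations differed at rest and lay close together or overlapped after LPS, except at Sdcbp, where every CD45.1 LPS library stayed above every CD45.2 one.

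Dab2, an endocytic adaptor, and Sash1, a scaffold of the LPS receptor TLR4, responded in both populations. The Dab2 intron 1 peak held 37.7, 22.4 and 34.8 tags in CD45.1 untreated and 110, 108 and 110 in CD45.1 LPS libraries, against 11.4, 2.90 and 5.22 and then 129, 86.5 and 74.4 in CD45.2 (−2.20, SE 0.446, DESeq2 adjusted p 0.000727). At Sash1 intron 1 CD45.1 libraries held 55.7, 57.3 and 57.3 tags before and 149, 166 and 178 after LPS, and CD45.2 libraries 5.44, 3.69 and 3.02 before and 41.6, 41.7 and 71.3 after (−2.25, SE 0.459, DESeq2 adjusted p 0.000795). The populations overlapped at Dab2 after LPS and not at Sash1. Scaled to total tags, the adjusted p of Lpp, Sdcbp, Pdgfrb and Sash1 was 0.128, 0.0841, 0.0998 and 0.0842. Dab2 did not pass without CD45.2 untreated mouse 5 (0.0903) and Sash1 not without CD45.2 LPS mouse 3 (0.0513).

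The 3 peaks with the higher log2 response in CD45.1, named after their values were seen, lay in Dock4, Rufy3 and Slc1a3. Those in Dock4 and Rufy3 rose in CD45.1, whereas that in Slc1a3 fell in CD45.2 (−1.18, DESeq2 adjusted p 8.55e-05) and was not called in CD45.1 (1.05, DESeq2 adjusted p 0.0914). Dock4, a Rac exchange factor, had 35.3 ± 3.10 and 102 ± 6.12 tags in CD45.1 before and after LPS and 76.0 ± 10.4 and 84.8 ± 13.6 in CD45.2 (1.405, SE 0.302, DESeq2 adjusted p 0.00228). Rufy3, a regulator of neuronal polarity and lysosome transport, had 12.2 ± 3.20 and 69.7 ± 4.91 against 36.5 ± 4.92 and 63.5 ± 4.38 (1.71, SE 0.380, DESeq2 adjusted p 0.00388). At the Slc1a3 intron 7 peak CD45.2 libraries fell from 103, 92.7 and 105 to 37.8, 46.1 and 46.4 tags, while CD45.1 libraries held 7.78, 5.51 and 3.22 before and 8.204, 11.7 and 13.99 after LPS (2.23, SE 0.526, DESeq2 adjusted p 0.0104). By gene list, an interaction was called at 5 of 47 matched peaks of marrow-derived and border macrophage genes, where 0.257% of all tested intronic pairs were called. It was called at 1 of 152 in microglia identity genes and at 1 of 271 in transcription factor genes. The counts were 0 of 36 in LPS and NF-kappaB response genes and 0 of 64 in axon guidance and adhesion genes. In the last pair of lists edgeR called 0 as well, and 1 peak of the former and 5 of the latter had an unadjusted p under 0.05. The marrow-derived list was made with earlier results of these mice known, and all 28 peaks with the higher log2 response in CD45.2 were higher in CD45.1 at rest. Its count is thus not independent evidence.

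**Figure D5:**
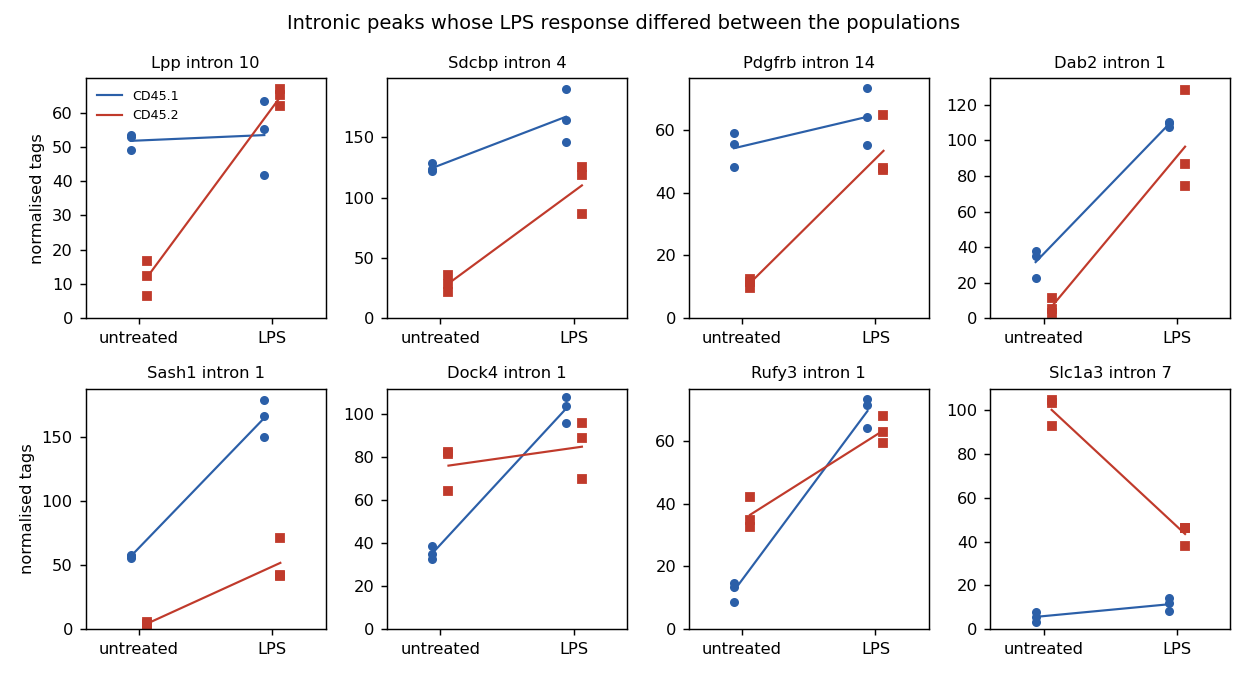
Normalised tags (linear axis, scaled over all 12 libraries) in untreated and LPS libraries of CD45.1 (circles) and CD45.2 (squares), with lines between group means, for 5 of the 6 intronic peaks with the smallest interaction p, followed by the 3 with the higher log2 response in CD45.1 (Dock4, Rufy3 and Slc1a3). At Lpp the CD45.1 mean moved from 51.8 to 53.4 tags and the CD45.2 mean from 11.9 to 64.6, while at Slc1a3 CD45.2 fell from 100.3 to 43.4.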

How the data were processed

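ATAC-seq libraries of CD45.1 and CD45.2 cells from 3 untreated and 3 LPS mice were analysed. Per the submitters' processing notes, the authors used bcl2fastq 2.17.1.14, Bowtie2, Picard 1.108 and HOMER on mm9. Per the file headers, peaks were called per library (fragment length 300 bp, FDR 0.001, 4-fold over local background), and the peaks of 6 libraries were merged per treatment. The methods of the study instead describe looser HOMER thresholds followed by a filter on the irreproducible discovery rate, and which of these lists entered the merge is not given in the sources used here. The deposited merged tables hold estimated counts, unnormalised tags per peak in steps of 0.5, which were rounded to whole numbers, ties to the even one. The peak lists of single libraries were not used.

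DESeq2 1.42.0 (R 4.3.3, Wald test, Benjamini-Hochberg adjustment) was fitted on all merged peaks of a table with more than 10 tags in at least 1 library. LPS and untreated peaks were paired where they overlapped reciprocally by at least 50% and each was the other's partner, and 1 model of population, treatment and their interaction was fitted on all pairs. No fold limit was set for the interaction. Floors cover counting error only. edgeR 4.0.16, numpy 2.4.6, pandas 2.3.3 and scipy 1.17.1 were used for the alternatives and summaries, and the fits were tested on simulated data. A CD45.1 and a CD45.2 library with the same number were taken as a pair from the same mouse. Their deviations from the group means correlated with r of 0.162, 0.0679 and 0.102 for mice 4, 5 and 6 and −0.0647, 0.0781 and 0.179 for mice 1, 2 and 3. Nothing in the labels pairs untreated with LPS mice, and p-values measure the spread between 3 mice a group.

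Named peaks were the 5 with the smallest adjusted p per direction at rest and after LPS, 3 per direction and population for the response and 6 for the interaction, of which 1 is not reported here. Named genes were those with the most called peaks, the most peaks or calls in both directions. Gene lists were microglia identity, marrow-derived and border macrophage, LPS and NF-kappaB response, myeloid and enhancer-binding transcription factors, and axon guidance and adhesion. Marker lists were macrophage, microglia, neuron, astrocyte, oligodendrocyte, endothelial, T cell, B cell and neutrophil. Members and lists were chosen with earlier results of these data known. Host genes were read from the transcript in the annotation, and sequences from the mm9 genome. Alternatives were the replicate block with and without a GC correction, scaling to total tags, edgeR, other filters, other overlaps and leaving out each library. Rounding ties up and counting tags per base of each interval were added after seeing the data.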

Additional observations from a re-analysis of the deposited data

Results flagged for a closer look

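The response to LPS differed between CD45.1 and CD45.2 cells at 31 of 12070 intronic peaks by the interaction test (0.257%, against 0.245% of all matched peaks). Among those with the smallest adjusted p, the log2 response was higher in CD45.2 at each of the 5 given here. The log2 interaction was −2.264 in intron 10 of Lpp, −1.543 in intron 4 of Sdcbp and −2.035 in intron 14 of Pdgfrb. It was −2.201 in intron 1 of Dab2 and −2.252 in intron 1 of Sash1. All 5 were more open in CD45.1 at rest, and the untreated libraries enter both measures. Scaled to total tags, 2 intronic peaks had an interaction, and each of these 5 lost its call in at least 1 alternative fit.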

How the results depend on the processing

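Of 575 alternative fits of 38 single peak results, 565 kept the call, 10 lost it and 0 reversed, and 29 results kept it throughout. Counts of called peaks depended more on the setting. With a mean of at least 20 tags, 261 and 157 intronic peaks were called towards CD45.1 and CD45.2 at rest and 56 and 42 after LPS, a setting that tests fewer peaks. Without a fold limit 1299 and 966 were called at rest. With the mouse as a replicate block and a GC correction, calls towards CD45.1 were 443 at rest and 118 after LPS, and those towards CD45.2 after LPS 130. The replicate block alone gave 190 and 125 calls after LPS and 12 interactions. It moved no other count by more than 1.5 times. edgeR called 350 towards CD45.2 after LPS. At an overlap of 80%, which leaves fewer pairs, 217 and 206 peaks were higher and lower after LPS in CD45.1, 252 and 138 in CD45.2, and 13 had an interaction. Scaled to total tags, 309 were lower in CD45.1, 714 higher and 358 lower in CD45.2, and 2 had an interaction. Per base of each interval 341 were lower in CD45.2. Where fewer peaks or samples do not account for a change, the cause was not tested. Leaving out single libraries gave 484 to 726 and 372 to 567 calls at rest, 115 to 219 and 75 to 125 after LPS, 804 to 1019 higher and 331 to 736 lower in CD45.1, 885 to 1156 and 309 to 637 in CD45.2, 9 to 35 interactions, and −0.254 to 0.273 percentage points for the difference of CD45.1 and CD45.2 in the share of tags in intronic peaks. LPS libraries hold fewer tags, which limits what could be called there, and the lowest intronic peaks rest on few tags.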
